A study of Mus musculus with 12 samples.

Results

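Genes of the endoplasmic reticulum (ER) that fold proteins, sense misfolded ones and send them for degradation were followed in spinal cord of mice with a mutant glycyl-tRNA synthetase. The set was fixed by gene symbol and held 31 of the 38924 genes in the tables, and all 31 passed the filter on low counts, as did 17980 genes in all. Whole spinal cord came from 12 mice at 8 weeks of age on a mixed B6J;CAST background. The 4 groups of 3 were WT females (mice 1, 2 and 10), WT males (5, 11 and 12), P278KY females (3, 4 and 9) and P278KY males (6, 7 and 8). WT mice were labelled wild type and P278KY mice heterozygous, which the series title writes as GarsP278KY/+, so each mutant kept 1 normal copy of Gars in every cell. The stated aim was to find transcripts that differ between mutant and WT adult cord. Dominant Gars mutations cause Charcot-Marie-Tooth neuropathy. Messenger RNA was sequenced from the whole tissue, so fewer cells of a type and less RNA per cell cannot be told apart.

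The unfolded protein response has 3 sensors in the ER membrane. IRE1 (gene Ern1) splices the messenger of XBP1, ATF6 is cut to release a transcription factor, and PERK (gene Eif2ak3) phosphorylates eIF2, which raises translation of ATF4. XBP1 and cut ATF6 switch on chaperone and degradation genes through the ER stress response element, whereas ATF4 switches on amino acid genes through a C/EBP-ATF response element and can be reached from other eIF2 kinases without any ER stress. Comparing ER genes with the ATF4 branch therefore sets apart readouts of these arms. Motor neurons, with their long axons and large secretory load, are often studied for this response.

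The promoter sequences are shown because the 2 arms act through different elements, although many genes of both lists held none in the window searched. RefSeq promoters (GRCm38.p6) were found for 27 of the 31 genes, with Ero1l and Ero1lb under their newer symbols Ero1a and Ero1b. Atf6, Manf, Hyou1 and Derl1 were not matched. The 250 bases before each RefSeq start were searched on both strands. The first element searched, named ERSE, is CCAAT and CCACG with 9 bases of any kind between them. Its letters were present in 10 of the 27 genes, against 0.113% of 32851 promoters of the same length. The sites of these 10 genes are given below on the strand of the motif, with the motif in capitals and 5 bases on each side. Hsp90b1 held 2 of them. Distances are from the RefSeq start, which for these 10 genes lay 0 to 120 bases from the start of the GENCODE gene.
Hspa5, 65 to 47 bases before the start: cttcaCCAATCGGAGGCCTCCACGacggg
Hsp90b1, 212 to 194 bases before the start: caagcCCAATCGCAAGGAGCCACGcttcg
Hsp90b1, 107 to 89 bases before the start: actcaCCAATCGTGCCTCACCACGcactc
Calr, 162 to 144 bases before the start: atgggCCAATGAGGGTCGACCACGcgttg
Canx, 145 to 127 bases before the start: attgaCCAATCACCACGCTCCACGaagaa
Dnajc3, 105 to 87 bases before the start: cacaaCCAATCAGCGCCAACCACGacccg
Pdia6, 98 to 80 bases before the start: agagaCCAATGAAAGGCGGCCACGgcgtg
Creld2, 126 to 108 bases before the start: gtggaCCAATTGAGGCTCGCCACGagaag
Syvn1, 44 to 26 bases before the start: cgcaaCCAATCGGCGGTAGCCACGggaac
Derl3, 156 to 138 bases before the start: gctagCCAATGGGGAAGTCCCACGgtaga
Ero1lb, 201 to 183 bases before the start: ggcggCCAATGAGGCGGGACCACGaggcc

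Herpud1 is shown in full because it was the 1 ER gene that rose and the 1 ER gene whose window held elements of both arms. Its window (chr8:94386179-94386428, plus strand) held ERSE-II, which is ATTGG, any base and CCACG, at 52 to 42 bases before the start, a motif in 0.0304% of all promoters. It also held the ATF4-type element named CARE, TGATGNAA (N is any base), at 112 to 105 bases before the start on the opposite strand, a motif in 3.45% of all promoters. The RefSeq start of Herpud1, 94386429, lies 9 bases before that of the GENCODE gene. In the sequence the CARE site is the first stretch of capitals, read on the gene's own strand, and ERSE-II is the second.
Herpud1: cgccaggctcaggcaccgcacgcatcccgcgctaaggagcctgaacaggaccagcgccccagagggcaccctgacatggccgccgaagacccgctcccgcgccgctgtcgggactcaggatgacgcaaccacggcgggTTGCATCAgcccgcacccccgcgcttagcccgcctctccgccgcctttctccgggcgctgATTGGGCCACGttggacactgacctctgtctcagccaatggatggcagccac

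The CARE site of Herpud1 is set beside those of the 3 ATF4 branch genes that rose in P278KY cord and held one, each on the motif's strand with 5 bases on each side.
Herpud1: cgggcTGATGCAAcccgc
Fgf21: acggaTGATGCAAtgggg
Chac1: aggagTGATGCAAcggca
Asns: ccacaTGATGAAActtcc
Of the 34 ATF4 branch genes with a promoter entry, 10 held CARE and 0 held ERSE. CARE was in 3 of the 14 that rose and in 7 of the other 20. Among the 27 ER genes it was in 1, Herpud1, beside 3.91% of all genes with a promoter entry. Whether this site bears on the rise of Herpud1 was not tested. The UPRE letters, TGACGTGG, were in 0 of the 27 ER genes and in 0.563% of all promoters. The CCACG stretch ends both ERSE motifs and, read on the other strand, lies within UPRE. A match describes letters in a window and not a bound site.

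The libraries held 26982140 to 39339999 expected counts. Levels are given as CPM, the counts of a gene relative to its scaled library total, or as the deposited TPM, which divides by transcript length. The TPM values had no further scaling between libraries. Gars itself had 129 ± 6.52 CPM in the WT mice against 141 ± 2.95 CPM in the mutants (SD, n = 6), a log2 difference of 0.13 (SE 0.03, adjusted p = 0.046) that did not pass in 10 of 12 fits with 1 mouse left out, and the counts do not separate its alleles. Markers of other cells differed between libraries. The summed level of 7 motor neuron markers was 180 to 267 CPM in WT and 141 to 158 CPM in P278KY mice, with 4 of 7 lower. The 6 Schwann cell markers summed to 1461 to 2538 CPM in WT and 430 to 1539 CPM in P278KY (2 of 6 lower), and the 6 meningeal fibroblast markers to 468 to 1185 CPM and 393 to 545 CPM (1 of 6 lower). The 6 astrocyte markers summed to 5422 to 5926 CPM in WT and 5767 to 6844 CPM in P278KY (1 of 6 higher, Slc1a3), and 1 of 8 neuron markers was higher. Over all tested genes 2.95% were lower and 2.36% higher, and a single call in so short a list says little. The 8 skeletal muscle markers ranged from 29.3 to 6960 CPM and were high in mice 1 to 4. The 8 sensory ganglion markers ranged from 8.07 to 69.5 CPM and were high in mice 7, 10 and 11. In the other mice they summed to 8.07 to 10.7 CPM in WT and 13.8 to 16.3 CPM in P278KY. Of these 8, 1 was higher in P278KY (P2rx3, log2 change 1.81, adjusted p = 0.0053). Scn10a and Mrgprd, which define pain-sensing ganglion neurons, were at 0 in some libraries. The part of these markers in the results below was not tested.

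ER genes spanned a wide range of levels per length, and a few chaperones made up most of the sum. Calr, the soluble lectin chaperone that binds calcium, was highest at 325 ± 24.1 TPM (SD over all 12 mice). Canx, its membrane-bound relative, followed at 317 ± 11.6 TPM, then Hsp90b1 (the ER HSP90) at 240 ± 12.7, Hspa5 (BiP, the ER HSP70) at 191 ± 20.7 and the disulfide isomerase gene Pdia3 at 146 ± 8.07 TPM. These 5 genes held 55.9% of the summed TPM of the 31. The range over mice of Calr overlapped that of Canx, and Hsp90b1 overlapped Hspa5, while Pdia3 lay apart from its neighbours in the order. From Manf (78.9 TPM) down to Atf6 (15.9 TPM) every gene overlapped the next one in the order. Edem1 (11.5 TPM), Ero1lb (8.85 TPM), the sensor Ern1 (5.68 TPM) and Derl3 (1.45 TPM) each lay below the one before with no overlap. Derl3 had at most 40 counts in a library, which makes its values the least precise of the set.

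**Figure D1:**
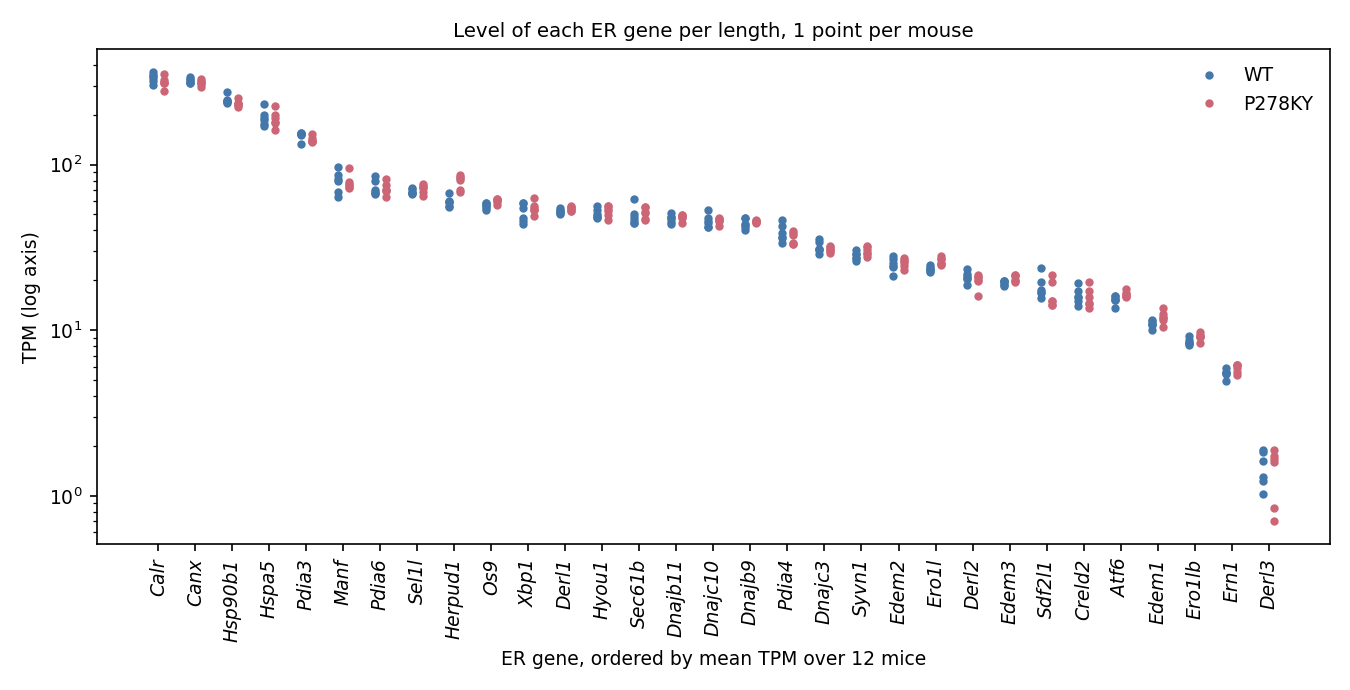
TPM of each ER gene (log axis) in 6 WT and 6 P278KY mice, 1 point per mouse, ordered by the mean over all 12. The 5 genes on the left hold 55.9% of the summed level, Derl3 is lowest at 1.45 TPM, and WT and P278KY points overlap for all genes other than Herpud1 and Ero1l.

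Between the genotypes most ER genes differed little. Herpud1 rose and Hsp90b1 and Pdia3 fell in P278KY cord at an adjusted p under 0.05, and 28 of the 31 did not pass. That is 9.68% of the set, beside 5.32% of all tested genes (2.36% higher and 2.95% lower). On counts the log2 change was below 0 for 21 genes (67.7%, beside 51.1% of all tested genes) and above 0 for 10, and on log2(TPM + 1) the split turned to 13 below (41.9%, beside 29.7%) and 18 above. The median on counts was -0.04, beside -0.003 over all tested genes. The 95% interval of the change lay within 1.2-fold in both directions for 23 of the 28 genes that did not pass, the exceptions being Pdia4, Calr, Creld2, Sdf2l1 and Derl3, and within 1.5-fold for all but Derl3. On CPM 0 of the 31 genes separated all 6 mutants from all 6 WT mice, beside 3.73% of all tested genes. The summed CPM of the set was 2833 to 3177 in WT and 2752 to 2937 in P278KY mice, with overlap, and a ratio of means of 0.950.

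**Figure D2:**
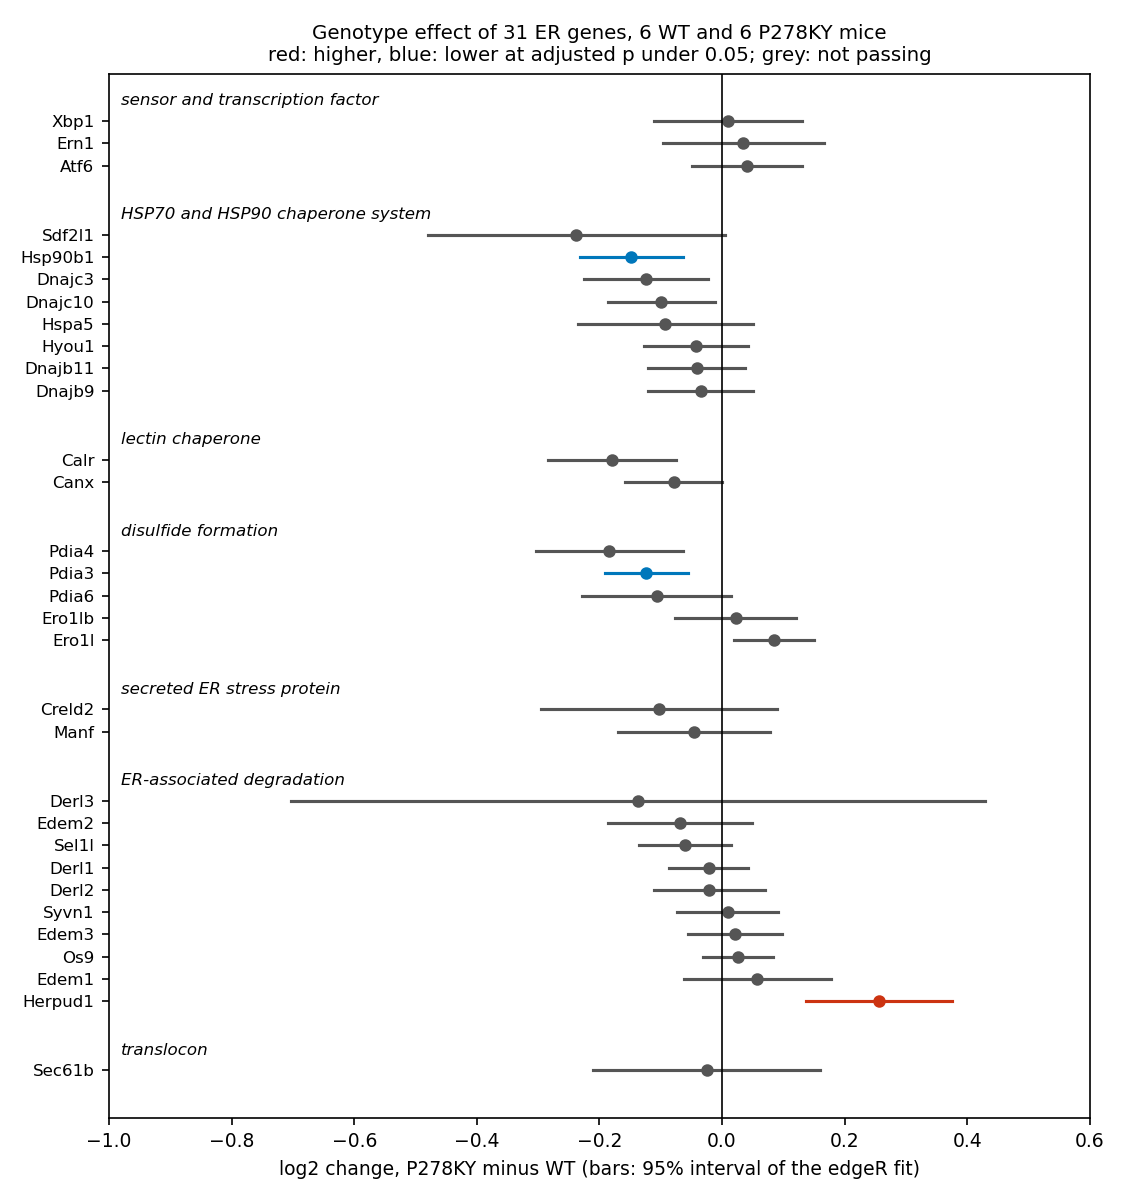
Log2 change of each ER gene, P278KY minus WT, with its 95% interval from the edgeR fit over 12 mice, grouped by role. Herpud1 is the 1 gene past the threshold to the right (0.26), Hsp90b1 (-0.15) and Pdia3 (-0.12) are past it to the left, and all 8 genes of the HSP70 and HSP90 group lie left of 0 on these counts, against 4 of 8 on the TPM scale.

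The sensors and their factor did not pass, with log2 changes of 0.01 to 0.04. Xbp1, the transcription factor gene whose messenger IRE1 splices, was at 58.2, 50.3 and 58.3 CPM in WT females 1, 2 and 10 and at 41.5, 45.3 and 46.2 CPM in WT males 5, 11 and 12. In P278KY mice it was at 50.9, 54.5 and 51.3 CPM in females 3, 4 and 9 and at 44.3, 50.5 and 48.5 CPM in males 6, 7 and 8. All mutant values lay inside the WT range, and the log2 change was 0.01 (SE 0.06, adjusted p = 0.951), with a fold change interval of 0.926 to 1.09. Gene counts do not show how much of the Xbp1 messenger was spliced. Ern1 had 17.3 ± 1.40 CPM in the WT mice against 17.7 ± 1.06 CPM in the mutants (SD, n = 6; log2 difference 0.04, SE 0.06). Atf6 was at 58.2 ± 2.97 and 59.9 ± 2.56 CPM (log2 change 0.04, SE 0.04). Outside the set, the third sensor gene Eif2ak3 was at 35.1 ± 1.73 and 35.0 ± 0.730 CPM (log2 change -0.01, SE 0.04), and the ATF6 relative Atf6b at 38.8 ± 2.64 and 37.4 ± 1.87 CPM (log2 change -0.05, SE 0.04).

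Of the 8 genes of the HSP70 and HSP90 chaperone system, 8 had a log2 change below 0 on counts (51.1% of all tested genes did) and 4 on log2(TPM + 1) (29.7% did), and 1 of them passed on counts. The 4 above 0 in TPM were Dnajb9, Dnajb11, Dnajc10 and Hyou1. Hsp90b1, which folds membrane and secreted proteins such as Toll-like receptors and integrins, was at 355, 335 and 388 CPM in WT females 1, 2 and 10 and at 337, 348 and 347 CPM in WT males 5, 11 and 12. In P278KY females 3, 4 and 9 it was at 314, 309 and 347 CPM, and in males 6, 7 and 8 at 309, 308 and 319 CPM. Of the 6 mutants, 5 lay below all WT mice and female 9 lay within the WT range. Hsp90b1 fell from 352 ± 19.1 to 317 ± 14.98 CPM (SD, n = 6), a 1.11-fold drop (log2 change -0.15, SE 0.04, adjusted p = 0.045), with an exact two-sided permutation p of 0.0087. The smallest p that this exact test can give is 0.00216. The call was lost in 9 of the 12 fits that left out 1 mouse, with an adjusted p of up to 0.106.

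Hspa5, the central chaperone of the ER and the usual marker of ER stress, did not pass. It was at 246, 248 and 297 CPM in WT females 1, 2 and 10 and at 215, 239 and 226 CPM in WT males 5, 11 and 12. In P278KY females 3, 4 and 9 it was at 205, 268 and 245 CPM, and in males 6, 7 and 8 at 213, 227 and 219 CPM. The genotypes overlapped widely, and the means were 245 ± 28.4 and 229 ± 23.2 CPM (SD, n = 6; log2 difference -0.09, SE 0.07, adjusted p = 0.486). Its fold change interval was 0.849 to 1.04. Among its partners, Dnajc3, a co-chaperone also known as p58IPK, had a log2 change of -0.12 (SE 0.05, adjusted p = 0.152). Dnajc10, a reductase that helps degradation, was at -0.10 (SE 0.04, adjusted p = 0.189). Dnajb9, Dnajb11 and the nucleotide exchange factor gene Hyou1 were at -0.03, -0.04 and -0.04. Sdf2l1, a small partner of BiP with few counts, had the lowest change of the set, -0.24, with an SE of 0.11 (adjusted p = 0.257), and its mutant values of 6.89 to 10.5 CPM overlapped the WT values of 8.15 to 12.3 CPM.

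Both lectin chaperones, which hold newly made glycoproteins for folding, had changes below 0 and did not pass. Calr was at 297, 286 and 316 CPM in WT females 1, 2 and 10 and at 261, 299.5 and 281 CPM in WT males 5, 11 and 12. Its values were 244, 253 and 294 CPM in P278KY females 3, 4 and 9 and 252, 240.0 and 254 CPM in males 6, 7 and 8. Again 5 mutants were below all WT mice and female 9 was not. The means were 290 ± 18.8 and 256 ± 19.2 CPM (SD, n = 6), and the log2 change of -0.18 (SE 0.05, adjusted p = 0.0504) lay at the threshold, which it crossed in 6 of 25 other fits. Canx went from 472 ± 20.4 to 447 ± 18.8 CPM (log2 change -0.08, SE 0.04, adjusted p = 0.252).

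Of the 5 disulfide genes 3 had a log2 change below 0 and 2 above, on counts and on log2(TPM + 1) alike. Pdia3, the isomerase that works with calreticulin and calnexin, was at 193, 179 and 196 CPM in WT females 1, 2 and 10 and at 175, 189 and 188 CPM in WT males 5, 11 and 12. In P278KY mice it was at 174, 169.6 and 182 CPM in females 3, 4 and 9 and at 167, 168 and 168 CPM in males 6, 7 and 8. Mutant female 9 was again the highest mutant and the 1 that reached into the WT range. Pdia3 fell from 187 ± 8.20 to 171 ± 5.69 CPM (SD, n = 6), a 1.09-fold drop (log2 change -0.12, SE 0.03, adjusted p = 0.041), with an exact two-sided permutation p of 0.0087. That call was lost in 8 of the 12 fits that left out 1 mouse, with an adjusted p of up to 0.095. Pdia4 and Pdia6, isomerases of the same family, had changes of -0.18 (SE 0.06, adjusted p = 0.0759) and -0.11 (SE 0.06, adjusted p = 0.319).

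The oxidases that recharge these isomerases lay on the other side of 0. Ero1l, the widely expressed one, was at 52.2, 51.0 and 54.6 CPM in WT females 1, 2 and 10 and at 54.1, 57.2 and 54.8 CPM in WT males 5, 11 and 12. It was at 56.9, 54.7 and 54.6 CPM in P278KY females 3, 4 and 9 and at 60.2, 58.1 and 59.1 CPM in males 6, 7 and 8. The mutant males were above all WT males, while mutant females overlapped WT mice of both sexes. The log2 change of 0.08 (SE 0.03, adjusted p = 0.128) did not pass. Ero1lb, its relative of secretory tissues, was at 0.02 (SE 0.05, adjusted p = 0.836).

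**Figure D3:**
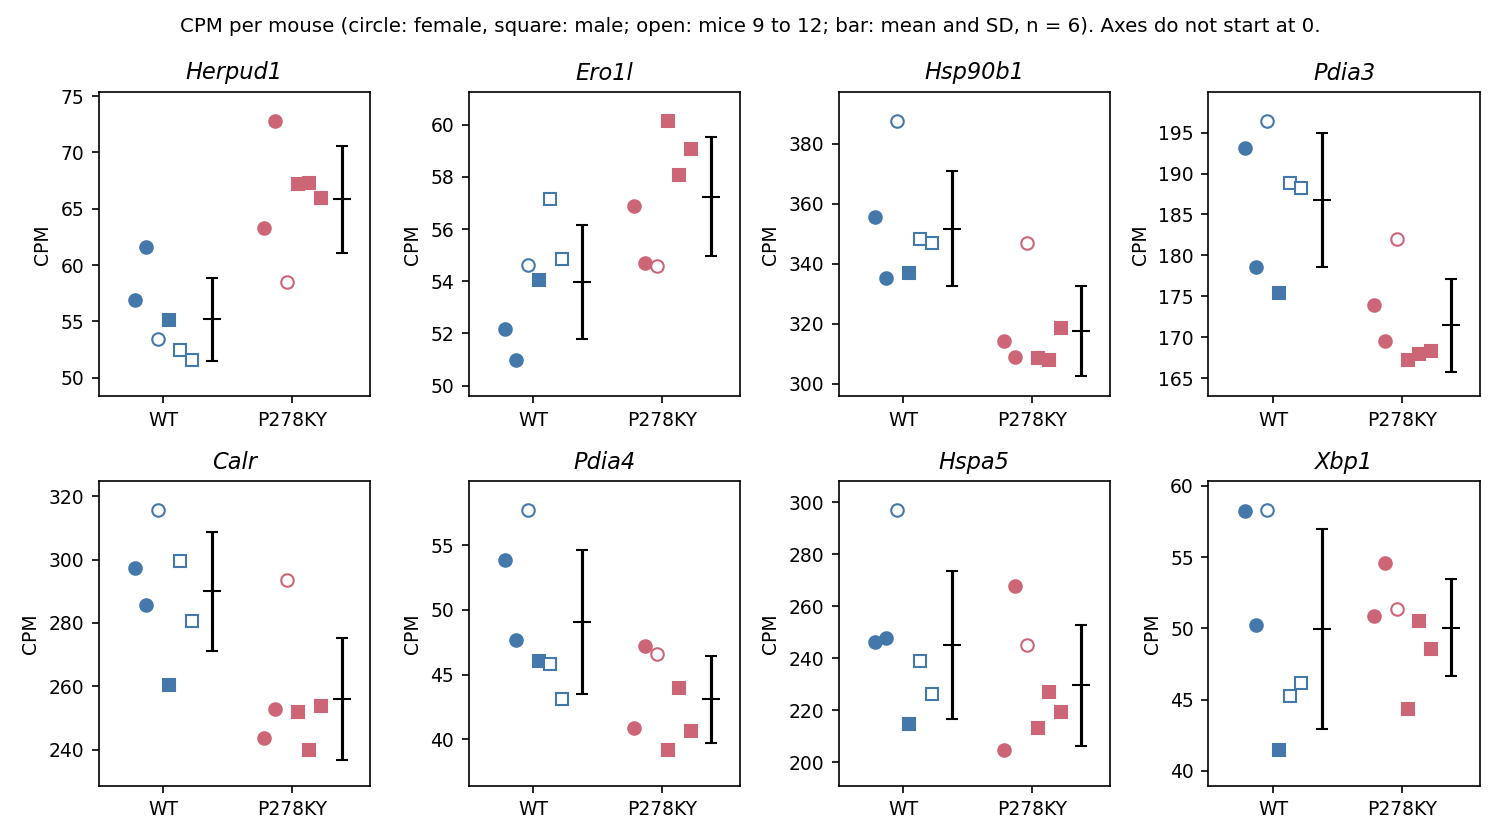
CPM per mouse of 8 ER genes in WT and P278KY cord (circles female, squares male, open symbols mice 9 to 12, bars mean and SD, n = 6; axes do not start at 0). For Hsp90b1, Pdia3 and Calr the open P278KY circle, female 9, is the mutant that reaches the WT values, and for Herpud1 it is the lowest mutant.

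Degradation genes, which pull misfolded proteins back to the cytosol for the proteasome, were led by Herpud1. Herpud1, which organises the retrotranslocation complex, was at 56.9, 61.6 and 53.5 CPM in WT females 1, 2 and 10 and at 55.1, 52.4 and 51.5 CPM in WT males 5, 11 and 12. In P278KY females 3, 4 and 9 it was at 63.3, 72.8 and 58.5 CPM, and in males 6, 7 and 8 at 67.2, 67.3 and 66.0 CPM. The genotypes met at a single place, where WT female 2 was above mutant female 9. Herpud1 rose from 55.2 ± 3.68 to 65.8 ± 4.76 CPM (SD, n = 6), a 1.19-fold rise with an interval of 1.10 to 1.30 (log2 change 0.26, SE 0.06, adjusted p = 0.017), and the exact two-sided permutation p was 0.0043. In all 12 fits that left out 1 mouse it passed, with an adjusted p of up to 0.0485. It did not pass without mice 7, 10 and 11 (log2 change 0.21, adjusted p = 0.183) or without mice 9 to 12 (0.23, adjusted p = 0.154), and over all 25 alternatives its log2 change was 0.20 to 0.39. Herpud1 (ENSMUSG00000031770) lies on chromosome 8, 94386438 to 94395377, plus strand, in GENCODE M21.

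The other 9 degradation genes did not pass. The ubiquitin ligase Syvn1 (HRD1) was at 47.6 ± 2.06 and 48.0 ± 2.68 CPM (SD, n = 6), and its adaptor Sel1l at 214 ± 6.90 and 205 ± 8.92 CPM, with log2 changes of 0.01 (SE 0.04) and -0.06 (SE 0.03). Os9, the lectin that hands over misfolded glycoproteins, was at 116 ± 3.57 and 118 ± 1.75 CPM (log2 change 0.03, SE 0.03). The mannose trimming genes Edem1, Edem2 and Edem3 were at 0.06, -0.07 and 0.02, and the derlin channel genes Derl1 and Derl2 at -0.02 and -0.02. Derl3 was at 0.952 ± 0.219 and 0.860 ± 0.312 CPM, with a fold change interval of 0.614 to 1.35 that leaves room for a change in either direction. The secreted proteins Creld2 and Manf, which rise under ER stress in many cells, had changes of -0.10 (SE 0.09) and -0.05 (SE 0.06). Sec61b, a subunit of the translocon through which new proteins enter the ER, was at -0.02 (SE 0.09).

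The ATF4 branch was read in the same libraries. Of 40 ATF4 branch genes 18 rose (45.0%, beside 2.36% of all tested genes) and 0 fell, with a median log2 change of 0.30. In 17 of the 40 all mutants lay above all WT mice (42.5%, beside 1.73%). Among the ER genes 1 rose and 2 fell, with a median of -0.04. The gene of ATF4 itself rose from 80.3 ± 3.27 to 97.0 ± 4.59 CPM (SD, n = 6; log2 difference 0.27, SE 0.03, adjusted p = 6.2e-04). Ddit3, the stress factor CHOP that PERK and ATF4 induce, rose from 17.2 ± 1.62 to 22.2 ± 1.19 CPM (log2 change 0.37, SE 0.06, adjusted p = 0.0021). The hormone gene Fgf21 was at 0 to 0.0732 CPM in the WT mice and at 4.63 to 5.94 CPM in the mutants. Slc7a1, Slc7a3 and Sesn2 rose by 0.55, 0.76 and 0.47 on the log2 scale. The summed ATF4 branch level was 1720 to 1895 CPM in WT and 2011 to 2118 CPM in mutants, with no overlap, while the ER sums overlapped. These lists were drawn up with earlier results known, so the counts describe them and test nothing.

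**Figure D4:**
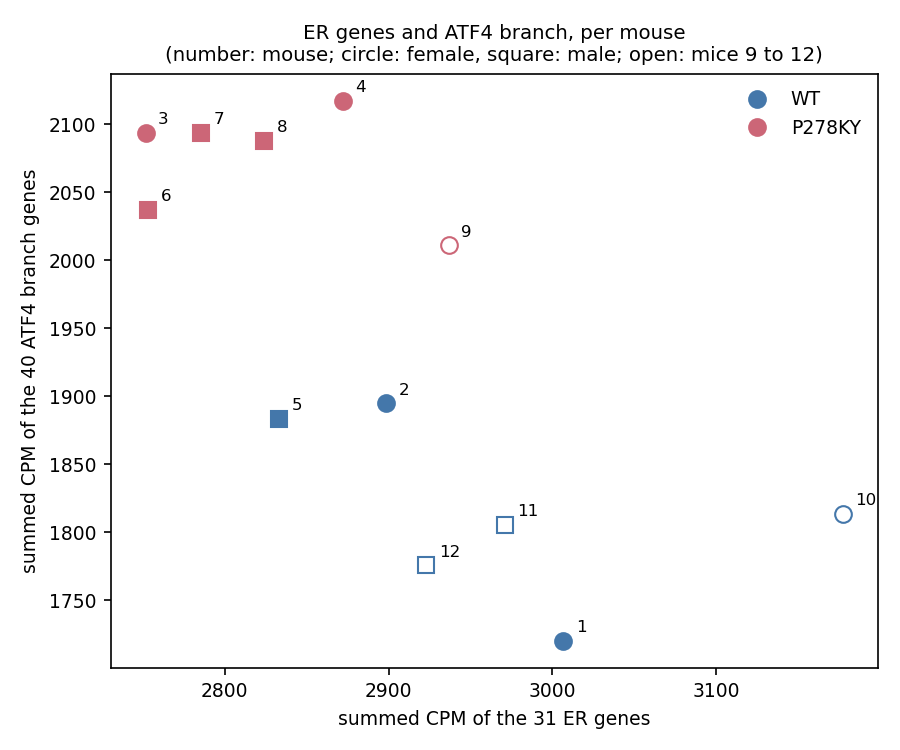
Summed CPM of the 31 ER genes (x axis) and of the 40 ATF4 branch genes (y axis) for each mouse, numbered, with circles for females, squares for males and open symbols for mice 9 to 12. All P278KY mice lie above all WT mice on the y axis, at 2011 to 2118 against 1720 to 1895 CPM, while on the x axis the genotypes overlap.

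Of the 10 ER genes with the ERSE letters, 8 had a log2 change below 0 on counts, beside 51.1% of all tested genes. On log2(TPM + 1) 8 did, beside 29.7%. On counts 1 fell (Hsp90b1), beside 2.95% of all tested genes, and 0 rose. The median was -0.10 and the range -0.18 to 0.02. Of the 17 without, 10 were below 0 on counts, with a median of -0.02, and 4 on log2(TPM + 1). These are descriptions of small groups, with no test between them, and genes read in the same mice are not separate observations. Pdia3, which fell, held none of the motifs searched.

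Further genes of the same compartment were counted too. Of 67 other ER genes (glycosylation, signal peptide handling, further isomerases and degradation factors) 0 rose and 2 fell, or 2.99%, beside 2.95% lower among all tested genes. Their median log2 change was -0.03 on counts and 0.04 on log2(TPM + 1). P4hb, the main protein disulfide isomerase, fell from 158 ± 5.76 to 144 ± 2.96 CPM (SD, n = 6; log2 difference -0.14, SE 0.03, adjusted p = 0.0062), and all 6 mutants lay below all 6 WT mice. Creb3l2, an ER-membrane transcription factor of secretory cells, fell from 48.9 ± 4.39 to 41.6 ± 2.88 CPM (log2 change -0.23, SE 0.04, adjusted p = 0.0047). Chaperones of the cytosol were read in the same way, and 2 of 29 fell (6.90%, beside 2.95% of all tested genes) while 0 rose. Cryab, the small heat shock protein of oligodendrocytes and astrocytes, went from 238 ± 20.05 to 180 ± 22.3 CPM, and the co-chaperone gene Bag3 from 45.0 ± 4.25 to 33.9 ± 2.65 CPM. Both had a log2 change of -0.41 (adjusted p = 5.5e-04 and 0.0018) and did not overlap between genotypes, as for 2% of all tested genes downward.

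The effect of the allele did not differ detectably between the sexes for any ER gene. In females 0 of the 31 were called (0.573% of all tested genes were), and in males Herpud1 was (1.55% of all tested genes). Its log2 change was 0.18 in females (SE 0.07, adjusted p = 0.357) and 0.33 in males (SE 0.07, adjusted p = 0.049), and the call in males was lost in 8 of the 12 fits that left out 1 mouse, with an adjusted p of up to 0.168. The interaction of genotype and sex was called for 0 ER genes and 0 of all tested genes, and 0 ER genes had an unadjusted p under 0.05 for it. The smallest unadjusted value was that of Xbp1, 0.073, where the log2 change was -0.09 in females and 0.11 in males. On counts the sign was the same in both sexes for 25 of the 31 genes (80.6%, beside 65.1% of all tested genes). On the same scale 19 were below 0 in both (61.3%, beside 32.8%). Separation within males in CPM was complete for 2 genes upward (Herpud1 and Ero1l), beside 11.4% of all tested genes. Downward it was complete for 7 (Hsp90b1, Pdia3, Pdia6, Dnajc3, Dnajc10, Calr and Sdf2l1), beside 11.6%. In females it was complete for 0 upward and for 2 downward (Pdia4 and Dnajb11), beside 8.54% and 7.71%. Separation in TPM was complete in males for 9 ER genes upward and 2 downward, and in females for 2 upward and 0 downward. Shares of all tested genes within each sex were not counted in TPM. On log2(TPM + 1) 12637 of the 17980 tested genes had a change above 0, so these TPM counts are not read as a result about ER genes.

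Sex itself was called for 0 ER genes and for 0.0890% of all tested genes. Of the 31, 24 were lower in males and 7 had an unadjusted p under 0.05. No share over all tested genes was counted for either, so neither count is read as a sex difference of the set. Of the 7, Xbp1 came first, with a log2 difference of -0.23 (SE 0.06, adjusted p = 0.316), and it passed with the Wald test of DESeq2 (adjusted p = 0.019). Pdia4 (-0.18, SE 0.06), Pdia6 (-0.16, SE 0.06), Manf (-0.15, SE 0.06), Hspa5 (-0.17, SE 0.07) and Sdf2l1 (-0.24, SE 0.11) were also lower in males, and Ero1l was higher in males (0.08, SE 0.03). Each gene named here as lower in males had its highest CPM in the same mouse, WT female 10.

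The highest values of many ER genes fell in the same mouse. WT female 10 had the highest CPM of all 12 mice for 12 of the 31 genes, namely Hspa5, Hsp90b1, Pdia3, Pdia4, Pdia6, Dnajb11, Dnajc3, Calr, Xbp1, Creld2, Manf and Sdf2l1. It was 1 of the 3 mice with high sensory ganglion markers. The others, P278KY male 7 and WT male 11, were highest for 0 and 2 ER genes. The part of these markers was not tested, and no share over all tested genes was counted for the highest mouse. P278KY male 6 had the lowest value for 6 genes and P278KY female 3 for 5. The median coefficient of variation was 5.87% among WT and 5.27% among P278KY mice. Without WT female 10 the calls of Hsp90b1 and Pdia3 were both lost and 0 ER genes were lower, while Herpud1 still passed.

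**Figure D5:**
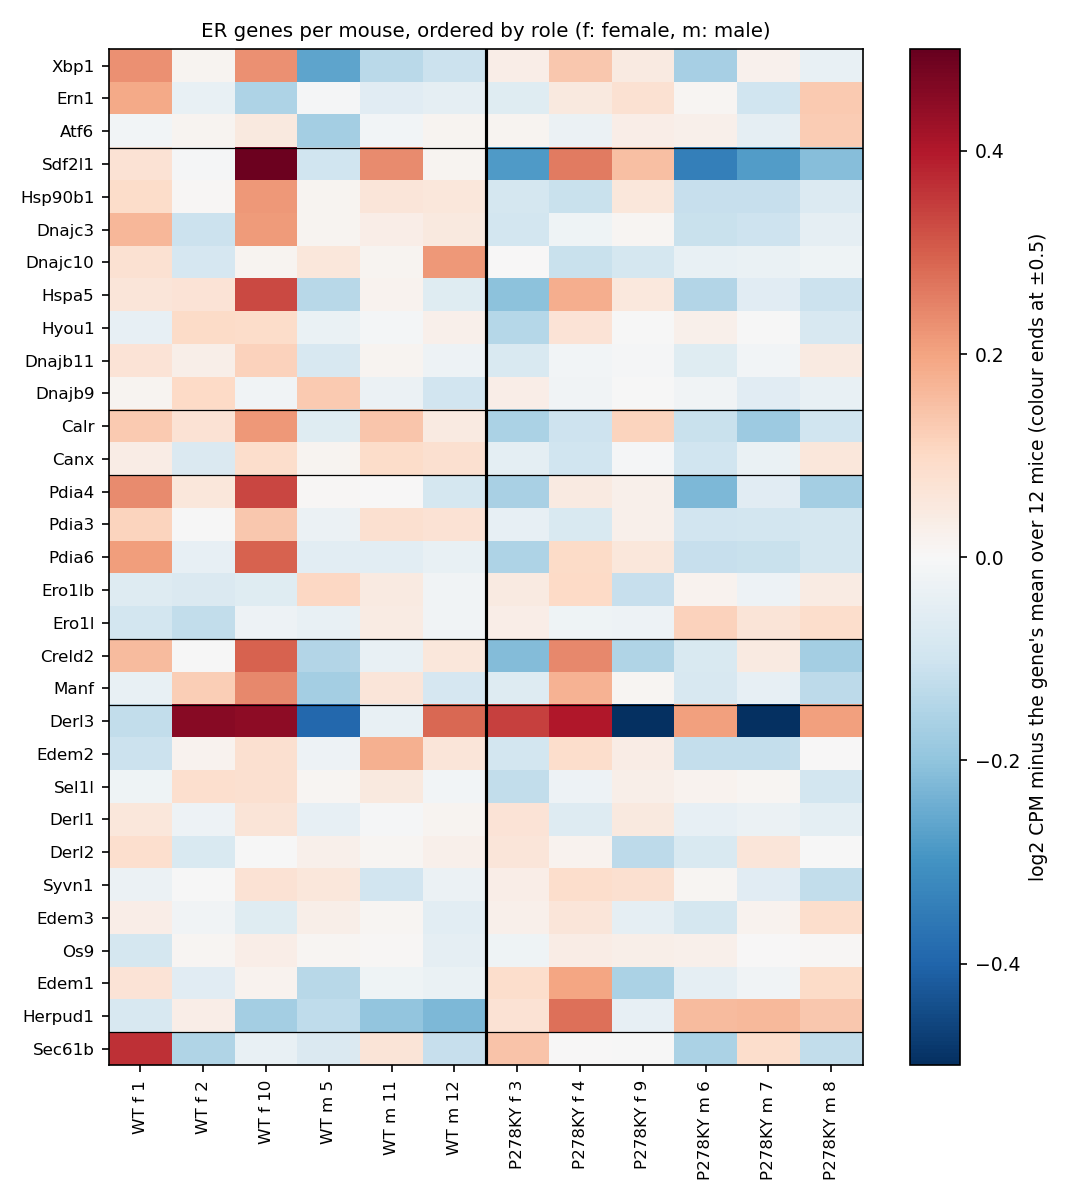
Log2 CPM of each ER gene in each mouse minus the gene's mean over 12 mice (rows by role, columns by group, colour ending at 0.5 in each direction). WT female 10 is the highest mouse for 12 genes, and the Herpud1 row is red in 5 of 6 P278KY columns.

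Mice 9 to 12 are 3 WT mice and 1 mutant and were looked at apart because of earlier results of these data, which are not shown here. The labels give no reason for such a split. Among mice 1 to 8 (3 WT, 5 mutants) the genotypes did not overlap for Herpud1 and Ero1l upward and for Hsp90b1, Pdia3 and Calr downward, beside 4.87% and 5.09% of all tested genes. In those mice Herpud1 ran from 55.1 to 61.6 CPM in WT and from 63.3 to 72.8 CPM in mutants, and Hsp90b1 from 335 to 355 and from 308 to 319 CPM. Among mice 9 to 12 mutant female 9 was at 58.5 CPM for Herpud1, above the 51.5 to 53.5 CPM of the 3 WT mice, and at 182 CPM for Pdia3, below their 188 to 196 CPM. For Hsp90b1 its 347 CPM lay among their 347 to 388 CPM. Without mutant female 9 the genotypes did not overlap for Herpud1 upward, beside 2.47% of all tested genes, and for Hsp90b1, Pdia3 and Calr downward, beside 2.59%. With a term for these 4 mice added to the fit after the data had been seen, Herpud1 still rose (log2 change 0.20, adjusted p = 0.023) and Hsp90b1 (-0.11, adjusted p = 0.080) and Pdia3 (-0.10, adjusted p = 0.078) did not pass. The term itself was called for 0 ER genes and for 0.0389% of all tested genes, and in that fit 1.68% of all tested genes were higher and 2.24% lower in P278KY.

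Other fits gave other counts of ER genes past the threshold. With the DESeq2 Wald test Herpud1 rose and Calr, Hsp90b1, Pdia3 and Pdia4 fell, beside 4.09% higher and 5.14% lower of all tested genes. With no filter on low counts Herpud1 rose and Calr fell (1.2% and 1.64%). Without the sex term Herpud1 rose and 0 fell (2.19% and 2.99%). Without mice 1 to 4, which had the muscle markers, Herpud1 rose and Hsp90b1 fell (1.09% and 1.93%). Without mice 7, 10 and 11, which had the ganglion markers, 0 ER genes passed (0.479% and 0.915%), and without mice 9 to 12 again 0 did (0.144% and 0.304%).

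The unit of measurement moved the small changes. On log2(TPM + 1) values 1406 of all tested genes were higher and 248 lower in P278KY (7.82% and 1.38%), against 425 and 531 on the counts, and on log2(TPM + 0.1) the shares were 7.88% and 1.40%. There 2 ER genes rose and 0 fell. Herpud1 went from 59.9 ± 4.25 to 78.6 ± 7.59 TPM (SD, n = 6; log2 difference 0.38, SE 0.07, adjusted p = 0.0079) and Ero1l from 23.5 ± 0.774 to 26.2 ± 1.27 TPM (log2 change 0.15, adjusted p = 0.015). Both separated all mutants from all WT mice in TPM, beside 4.56% of all tested genes upward. Hsp90b1 (-0.07, adjusted p = 0.261) and Pdia3 (-0.08, adjusted p = 0.222) kept their direction and did not pass. The median of the ER genes was 0.03 on this scale and that of all tested genes 0.062, so the sign of the ER median turned while it stayed below that of all genes.

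Transcript length, which RSEM weights by its isoform estimates, was read too and comes from the same reads as the counts. Of the 20 ER genes whose length varied between mice, 0 passed for genotype, beside 0.0179% of the genes tested. Of the 20, 3 had an unadjusted p under 0.05, with no share over all genes counted for it. For Herpud1 the mean length was 1854 ± 18.8 bases in WT and 1787 ± 70.1 bases in P278KY mice (SD, n = 6; log2 difference -0.05, SE 0.02, adjusted p = 0.647), and TPM divides by an effective form of this length. The Xbp1 length was 1941 ± 45.4 and 1930 ± 41.9 bases, which does not measure splicing by IRE1.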

How the data were processed

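RNA-seq values of 12 spinal cords were used, 1 table per mouse. Per the submitters' processing notes, Bowtie2 2.2.0 and RSEM 1.2.12 were used by the authors. Build and annotation: not given in the sources used here. Per the file headers, RSEM wrote the deposited expected counts (estimated reads for each gene) and the deposited TPM and FPKM, which divide by transcript length. FPKM entered no result. Libraries were made from polyadenylated RNA with a stranded kit and read as 75 bp pairs, per the labels' protocols.

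Counts were rounded, filtered with filterByExpr over the 4 groups and scaled by TMM, and tested with edgeR's quasi-likelihood F test (sex and genotype, or 4 group means), with Benjamini-Hochberg adjustment over 17980 genes and a threshold of 0.05. Versions were edgeR 4.0.16, DESeq2 1.42.0, limma 3.58.1 and R 4.3.3. The fit was tested on simulated data. Each mouse counts as 1 replicate. Lengths were tested with limma. Named were all 31 ER genes, Gars, up to 8 called genes per list and direction by p, Atf4, Ddit3, Eif2ak3 and Atf6b at any value, and the 5 genes most like the ER gene that changed most. TPM was tested as deposited, without TMM scaling, with limma on log2(TPM + 1). Gene positions came from GENCODE M21 by gene ID (31 of 31). The members and lists were chosen with earlier results of these data known. Alternatives covered scaling, test, filter, rounding, TPM pseudocounts, the sex term and left-out mice.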

Additional observations from a re-analysis of the deposited data

Results flagged for a closer look

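Of 62 groups of 6 mice examined (31 genes in 2 genotypes), 3 held a mouse whose gap to its neighbour was above Dixon's 95% critical value as a share of the group's range, where chance gives about 1 in 20 groups. Hsp90b1 was at 347 CPM in P278KY female 9, the highest of the mutants, and the next was at 319 CPM. Calr was at 294 CPM in the same mouse, and the next was at 254 CPM. Without that mouse the genotypes did not overlap for Hsp90b1, Pdia3 and Calr downward (2.59% of all tested genes) and for Herpud1 upward (2.47%), and Calr joined Hsp90b1 and Pdia3 among the genes that passed. Atf6 was at 52.5 CPM in WT male 5, the lowest of the WT mice, and the next was at 58.4 CPM.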

How the results depend on the processing

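No call turned direction under any alternative run. The count of ER genes higher (1) was 2 on log2(TPM + 1) and on log2(TPM + 0.1), 0 without mice 7, 10 and 11 and 0 without mice 9 to 12, and 1 in all fits with 1 mouse left out. The count lower (2) was 4 with the DESeq2 Wald test (Calr, Hsp90b1, Pdia3 and Pdia4), 1 with no filter (Calr) and 1 without mice 1 to 4 (Hsp90b1), and 0 on both TPM scales, without the sex term, without mice 7, 10 and 11, without mice 9 to 12 and with a term for mice 9 to 12. It was 0 to 3 with 1 mouse left out, and 0 without P278KY female 3, P278KY female 4, P278KY male 6, P278KY male 7, P278KY male 8, WT female 10, WT male 11 or WT male 12. The count in males (1) was 0 without mice 7, 10 and 11 or mice 9 to 12 and 0 to 1 with 1 mouse left out, and the count for sex (0) was 1 with the Wald test (Xbp1). ER genes without overlap (0) numbered 2 in TPM, both upward (beside 4.56% of all tested genes). They numbered 5 without mice 9 to 12 (beside 4.87% upward and 5.09% downward), 3 without mice 1 to 4 and 0 to 4 with 1 mouse left out. No share was counted without mice 1 to 4 or, apart from P278KY female 9, with 1 mouse left out. Smaller groups separate more readily, so these counts are not read as a result about ER genes. The ER median (-0.04) was 0.032 on log2(TPM + 1), 0.034 on log2(TPM + 0.1) and -0.06 to -0.04 with 1 mouse left out, and the median of all genes (-0.003) was 0.062 and 0.073.

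ATF4 branch genes higher (18) numbered 11 without mice 7, 10 and 11 (beside 0.479% of all tested genes) and 7 without mice 9 to 12 (beside 0.144%). They numbered 16 to 24 with 1 mouse left out. Of the ATF4 branch 1 gene was lower with voom (Slc6a9) and 0 to 1 with 1 mouse left out. The ATF4 median (0.30) was 0.36 on log2(TPM + 0.1). Other ER genes higher (0 of 67) numbered 5 on both TPM scales (Erlec1, Rnf185, Sec11a, Txndc11 and Ufd1l), beside 7.82% and 7.88% of all tested genes. These 5 are not read as a result about ER genes. Those lower (2) numbered 0 on both TPM scales, 1 without mice 1 to 4 (beside 1.93%) and 1 without mice 7, 10 and 11 (beside 0.915%). They numbered 0 without mice 9 to 12 and 2 to 4 with 1 mouse left out. Cytosolic genes lower (2 of 29) numbered 4 with the Wald test (beside 5.14%), 0 without mice 9 to 12 and 2 to 3 with 1 mouse left out. All genes called (956) numbered 1617 with the Wald test, 1467 with voom, 1654 and 1668 on the TPM scales, 557 without mice 1 to 4, 253 without mice 7, 10 and 11, 84 without mice 9 to 12 and 542 to 1385 with 1 mouse left out. With 1 mouse left out the count of all genes called thus moved both below and above 956, and causes of these shifts were not tested. Length calls stayed at 0 with effective length. No paired analysis was possible because mouse numbers are not shared between groups. Derl3, with at most 40 counts, is the ER gene that depth limits most.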

Other observations

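By Pearson's r of log2 CPM over the 12 mice, the 5 tested genes most like Herpud1 were Paxip1 (0.95), Crebbp (0.94), Nup188 (0.93), N4bp2 (0.93) and Klf15 (0.93). They were picked as the highest of all tested genes, so these values describe the choice and have no test, and all mice of both genotypes enter each of them. Crebbp, the gene of a histone acetyltransferase, rose in P278KY cord (log2 change 0.20, adjusted p = 0.0050), as did N4bp2 (0.31, adjusted p = 0.0085). Klf15, a glucocorticoid-responsive factor gene, had a larger change that did not pass (0.44, adjusted p = 0.158), and Paxip1 and Nup188 did not pass either (0.14, adjusted p = 0.059, and 0.14, adjusted p = 0.102).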
